A study of Rattus norvegicus with 46 samples.

Results

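Collagens and lysyl oxidases were followed in rat skin before, during and after a course of radiation, in 46 arrays. The set was defined by 9 gene symbols: the fibrillar collagen chains Col1a1, Col1a2, Col3a1, Col5a1 and Col5a2, the microfibrillar chain Col6a1, the fibril-associated chain Col12a1, and the cross-linking enzymes Lox and Loxl2. Members were taken as the rows of the deposited table that the array annotation gives 1 of these symbols, whatever their values. The annotation named such a row for 5 of the 9, among 23188 features tested. These are Col1a1 (probe set TC1000001453.rn.2), Col1a2 (TC0400000308.rn.2), Col3a1 (TC0900000594.rn.2), Col5a1 (TC0300000155.rn.2) and Loxl2 (TC1500000759.rn.2). Col5a2, Col6a1, Col12a1 and Lox are not analysed here. In the text below, "the members" means the 5 measured genes.

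The animals were 9 Sprague-Dawley rats, from which 5 mm punches of abdominal skin were taken repeatedly and hybridized to single-colour Clariom S arrays. Untreated skin was sampled on day -10 (baseline, 6 arrays of 6 rats). Skin was sampled again on days -4, 1, 3, 7 and 14. By treatment there were 3 arms: rats 303, 323 and 324 were irradiated and given RTA-408, rats 320, 321 and 322 were irradiated and given the DMSO vehicle, and sham-irradiated rats were given vehicle ("unirradiated", with 2 arrays a day against 3 in the other arms). Rat 319 gave an unirradiated array on each of those days, while rat 318 gave the other on days -4, 1 and 3 and rat 317 on days 7 and 14. For the unirradiated array of rat 318 on day 1 the labels disagree: its title and source name give day 1, which was used, and its description names day 3. Irradiated rats received a cumulative 40 Gy of 6 MeV electrons in 4 fractions of 10 Gy, given every other day over 8 days, and injections were given on days -7, -5, -3 and 0. The day -4 biopsies therefore fell within the course. RTA-408 is a drug that activates NRF2, a transcription factor of antioxidant genes. No arm received RTA-408 without radiation, and no age is given in the labels.

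Collagen I, made of Col1a1 and Col1a2 chains, is the main tensile protein of the dermis. Collagen III, made of Col3a1 chains, is copolymerised with it, and collagen V, which contains Col5a1 chains, is built into the same fibrils and limits their diameter. Dermal fibroblasts secrete the chains as procollagen, which is hydroxylated in the endoplasmic reticulum, trimmed outside the cell and assembled into fibrils. Lysyl oxidases, the family of Lox and Loxl1 to Loxl4, oxidise lysine side chains, and the products form the covalent cross-links that stabilise collagen and elastic fibres. Radiation damage to skin is known for late dermal fibrosis, in which this matrix accumulates.

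RefSeq sequence upstream of the annotated start was available in the table used here for Col1a2 and Col5a1. The stretch from 250 to 121 bases before the start is printed for each, to set these fibril partners side by side over that stretch, on build GRCr8, on the plus strand, with motif matches in capitals. Both strands were searched, and no matches overlapped. The motifs were the TATA box, spelled TATAAA, the CCAAT box, the GC box, spelled GGGCGG, the AP-1 site, spelled TGANTCA, and the SMAD element, spelled CAGAC. A match on the minus strand appears as the reverse complement.
Col1a2 (chr4:33518307-33518436): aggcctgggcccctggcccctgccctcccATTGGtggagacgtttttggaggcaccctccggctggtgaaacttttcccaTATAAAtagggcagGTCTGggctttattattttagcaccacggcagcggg
Col5a1 (chr3:31606630-31606759): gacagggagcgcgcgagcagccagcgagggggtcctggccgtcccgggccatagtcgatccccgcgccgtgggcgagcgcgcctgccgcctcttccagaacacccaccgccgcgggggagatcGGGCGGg
The Col1a2 stretch held a TATAAA match, 170 to 165 bases before the annotated start. It also held minus-strand matches of CCAAT (221 to 217 bases before) and CAGAC (156 to 152), and its GC content was 57.7%. The Col5a1 stretch held a GGGCGG match (127 to 122 bases before) as its only match, and its GC content was 76.9%. The bases nearer to the annotated start were not searched, and whether that start is used in skin was not tested. Over the same stretch of 33469 RefSeq promoters, TATAAA was present in 6.8%, CCAAT in 18.5%, GGGCGG in 13.8%, TGANTCA in 3.37% and CAGAC in 25.9%. These are matches of letters and not measured binding sites.

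All values are deposited log2 signals, and every difference is one of mean log2 signals on that scale. Array medians lay between 6.84 and 6.95 and the highest signal of an array between 19.66 and 19.93. Over all features, the lowest and highest Pearson r between 2 arrays of 1 group were 0.927 and 0.990. By the signal of their spike-in controls the arrays form sets that are called I (18 arrays), II (10 arrays) and III (18 arrays). The sets are drawn from the signal alone, and the labels name no such sets. All baseline arrays fell in set I. Unirradiated arrays fell in set I on days -4 and 1 and in set III afterwards, and set II held 1 array of each irradiated arm on every day. All 11 measured fibroblast markers were above the negative control median on every array, with Pdgfra between 11.02 and 14.70, so the labelled tissue holds the cells that make these chains. Skeletal muscle markers were also abundant and uneven, with Ckm between 5.98 and 18.98 among arrays, so the biopsies held different amounts of muscle RNA. In tissue of mixed cells, fewer cells of a type and less RNA per cell cannot be told apart. With 2 or 3 arrays in most groups, the number of arrays limits the precision, and the spread differs between genes as well.

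The collagen I chains were among the brightest features of the skin in every sample. Across the 46 arrays Col1a1 ran from 17.69 through a median of 18.98 to 19.48, and Col1a2 from 17.38 through 19.07 to 19.63. Col3a1 ran from 16.57 through 17.95 to 18.96. These 3 features were in the top 1% of features on all 46 arrays, with the median rank of Col1a1 at 27 and that of Col1a2 at 28. Col1a2 came within 0.0258 to 2.53 of the array's highest signal and Col1a1 within 0.25 to 2.22, so the room above them on the scale was small in some arrays. Col5a1 (10.04, median 11.32, 12.34) and Loxl2 (9.99, median 11.23, 12.47) were dimmer, with median ranks of 3058 and 3237 among the 23188 features, and the lowest member signal of any array was 3.81 above that array's negative control median.

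**Figure D1:**
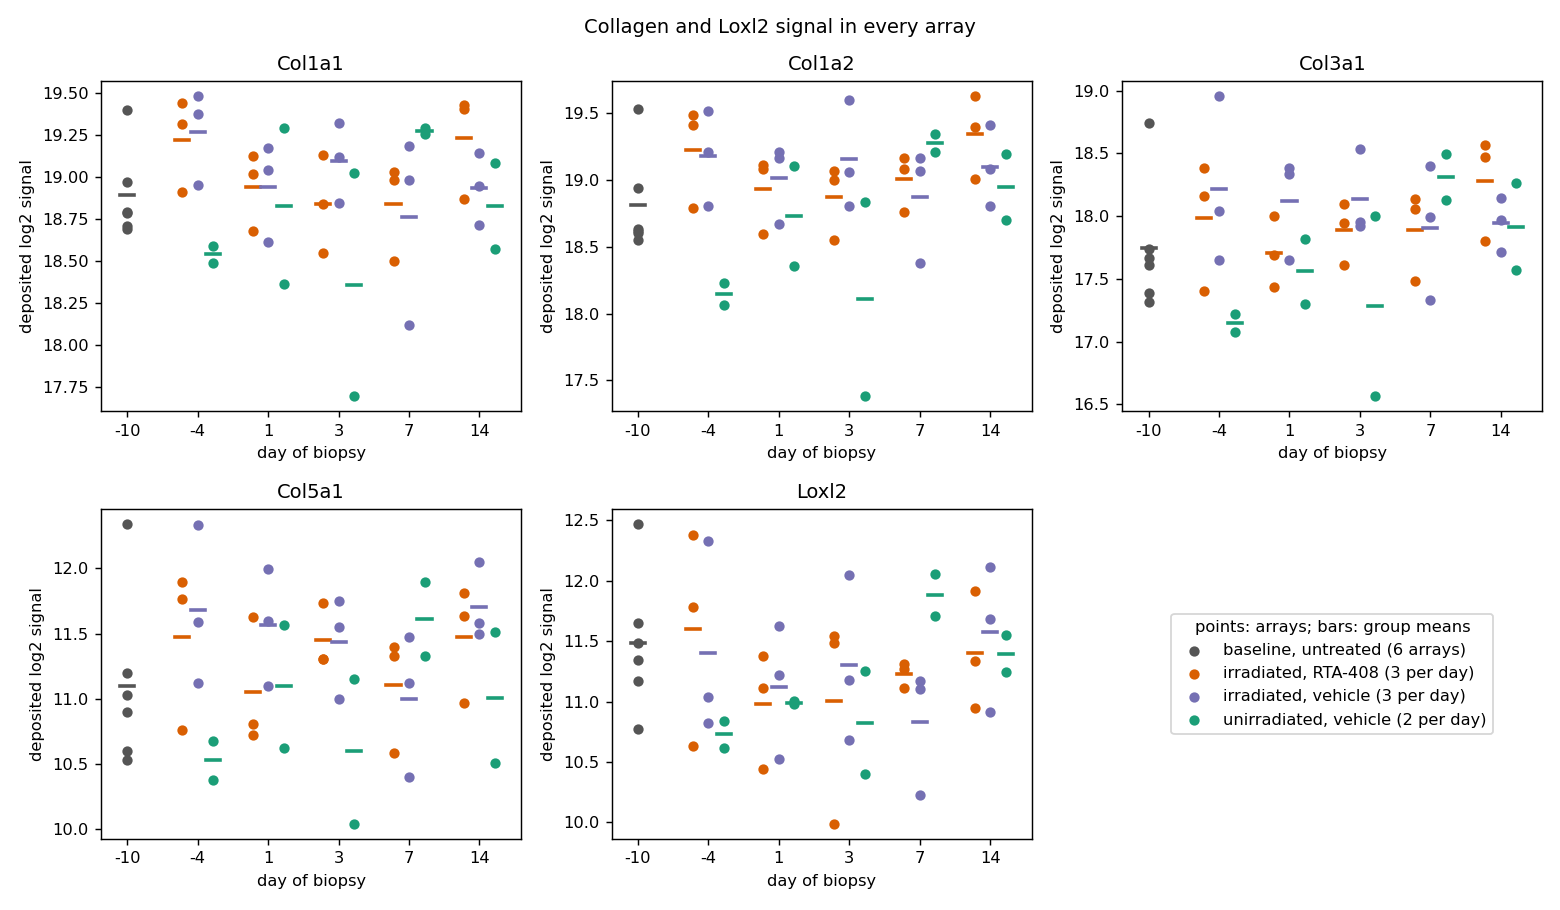
Deposited log2 signal (vertical axis) of the 5 measured members in each of the 46 arrays, by day of biopsy (horizontal axis), with points for arrays and bars for group means in the baseline group and the 3 arms. Arrays of the arms overlap on most days, the unirradiated arrays of day -4 lie below both irradiated arms for the 4 collagen chains, and 1 unirradiated array of day 3 is the lowest of all for Col1a1, Col1a2, Col3a1 and Col5a1.

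For each member the range of the group means exceeded the pooled SD within groups. A range over 16 means of 2 to 6 arrays can exceed that SD through spread alone. It therefore does not test whether groups differ. The 16 group means of Col1a1 spanned 0.92, with a pooled SD within groups of 0.36 (30 residual degrees of freedom). They ran from 18.36 in unirradiated skin on day 3 to 19.27 in unirradiated skin on day 7. For Col1a2 the means spanned 1.24 (pooled SD 0.38), from 18.11 in unirradiated skin on day 3 to 19.35 in irradiated RTA-408 skin on day 14. Both ends of the Col1a1 order were thus groups that had not been irradiated. These groups hold 2 arrays each, so their means are the least precise, and the lower mean joins arrays at 17.69 and 19.02.

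The other members had the same kind of order. Col3a1 means spanned 1.17 (pooled SD 0.46), from 17.15 in unirradiated skin on day -4 to 18.31 in unirradiated skin on day 7. Col5a1 means spanned 1.18 (pooled SD 0.53), from 10.53 in unirradiated skin on day -4 to 11.71 in irradiated vehicle skin on day 14. Loxl2 means spanned 1.15 (pooled SD 0.59), from 10.73 in unirradiated skin on day -4 to 11.88 in unirradiated skin on day 7. When the 16 groups were ranked, no neighbouring means of Col1a1, Col3a1, Col5a1 or Loxl2 were further apart than the pooled SD. For Col1a2 1 such gap was larger, at 0.58. Gaps between neighbours among 16 ranked means tend to be small by construction, so they do not test whether groups differ.

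The radiation comparison set irradiated vehicle skin against unirradiated vehicle skin on the same day, and asked how radiation changed the skin. No member passed an adjusted p under 0.05 on any of the 5 days (limma, Benjamini-Hochberg over 23188 features). That is 0 of 5 on day -4, where 7.42% of all features passed, 0 of 5 on day 1 (2.1%), 0 of 5 on day 3 (1.3%), 0 of 5 on day 7 (4.02%) and 0 of 5 on day 14 (6.96%). In all, 20 of the 25 differences were above 0 and they ranged from -1.05 to 1.16. At an unadjusted p under 0.05 there were 4 members on day -4 (21.4% of all features), 3 on day 3 (13.6%) and 1 on day 7 (17.9%), with 0 on day 1 (16.4%) and 0 on day 14 (18.4%).

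On day -4 all 4 collagen chains were at their lowest or nearly lowest in unirradiated skin. Col1a2 read 18.81, 19.52 and 19.21 in irradiated vehicle rats 320, 321 and 322, and 18.06 and 18.23 in unirradiated rats 319 and 318. Every irradiated array was above both unirradiated arrays. The means were 19.18 ± 0.36 (SD, n = 3) and 18.15 ± 0.12 (SD, n = 2), a difference of 1.03 ± 0.34 (SE; limma adjusted p = 0.0600). This was the smallest adjusted p of any member in any comparison. Col3a1 differed by 1.07 ± 0.41 (SE; limma adjusted p = 0.106), Col5a1 by 1.16 ± 0.46 (SE; limma adjusted p = 0.129) and Col1a1 by 0.73 ± 0.32 (SE; limma adjusted p = 0.173). For these 4 chains the arrays of the groups did not overlap, as for 23.6% of all features in that direction. Loxl2 differed by 0.67 ± 0.51 (SE; limma adjusted p = 0.504), with overlap. The median difference of the members was 1.03 and that of all features 0.07. With array weights, Col1a2, Col3a1 and Col5a1 passed (limma adjusted p = 0.0122, 0.0372 and 0.0482). Col1a2 also passed when the dimmest features were left out, at 0.0485, and without rat 320, at 0.0499.

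Markers of other cells also differed in the same comparison, in which 7.42% of all features passed in either direction. Of the 6 endothelium and pericyte markers, 4 passed as higher and 0 as lower, and their mean signal was 10.74 to 10.96 in irradiated vehicle arrays and 8.85 to 9.45 in unirradiated arrays. Of 11 measured fibroblast markers 2 passed as higher and 0 as lower, with a mean signal of 11.64 over the irradiated and 10.68 over the unirradiated arrays. Of 6 myofibroblast markers 1 passed as lower and 0 as higher, with a mean signal of 10.52 to 11.31 in irradiated and 11.60 to 11.77 in unirradiated arrays. Of 6 hair shaft markers 3 passed as lower and 0 as higher, with a mean signal of 7.10 to 13.19 in irradiated and 17.57 to 17.76 in unirradiated arrays. The part of these cells in the collagen differences was not tested.

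On day 3 the difference rested on a single low biopsy. Col1a1 read 17.69 and Col1a2 17.38 in unirradiated rat 318, against 19.02 and 18.84 in unirradiated rat 319. Irradiated vehicle arrays read 18.84 to 19.32 for Col1a1 and 18.81 to 19.60 for Col1a2, so that rat 319 lay within the irradiated range of each gene. The differences were 0.74 ± 0.32 for Col1a1 and 1.05 ± 0.34 for Col1a2 (SE; limma adjusted p = 0.289 and 0.126). Without rat 319's array of that day they became 1.40 and 1.78 (limma adjusted p = 0.0222 and 0.00685), with 1 unirradiated array left, that of rat 318, whose spread is assumed to be that of the other groups. Col3a1, Col5a1 and Loxl2 differed by 0.86, 0.84 and 0.48 (limma adjusted p = 0.347, 0.443 and 0.749).

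On day 7 all 5 differences were below 0. Loxl2 read 10.23, 11.10 and 11.17 in irradiated vehicle rats 320, 321 and 322, and 11.71 and 12.05 in unirradiated rats 317 and 319. The difference was -1.05 ± 0.51 (SE; limma adjusted p = 0.278). The groups did not overlap for 3 of the 5 members, Loxl2, Col1a1 and Col1a2, as for 20.4% of all features in that direction. For Col1a1 the highest irradiated array was at 19.19 and the lowest unirradiated one at 19.26, and for Col1a2 they were at 19.17 and 19.21. Col1a1, Col1a2, Col3a1 and Col5a1 differed by -0.51, -0.41, -0.40 and -0.61, with limma adjusted p between 0.432 and 0.674.

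Days 1 and 14 gave positive differences, with overlap of the groups for each member. On day 1 they ranged from 0.12 for Col1a1 to 0.56 for Col3a1, and on day 14 from 0.03 for Col3a1 to 0.70 for Col5a1. On day 14 Col5a1 read 11.50, 11.58 and 12.05 in irradiated vehicle skin and 10.51 and 11.51 in unirradiated skin, so that 1 unirradiated array, that of rat 317, reached the lowest irradiated one. The Col5a1 interval on day 14 reached from -0.24 to 1.64 (95%), which holds both no difference and a large one. Whether the radiation difference itself changed over the 5 days was tested with the moderated F-test, and no member passed (0 of 5, 2.16% of all features; limma adjusted p = 0.267 for Col1a1, 0.186 for Col1a2, 0.342 for Col3a1, 0.360 for Col5a1 and 0.460 for Loxl2). The turn from positive differences on days -4 and 3 to negative ones on day 7 was therefore not shown to exceed the spread.

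**Figure D2:**
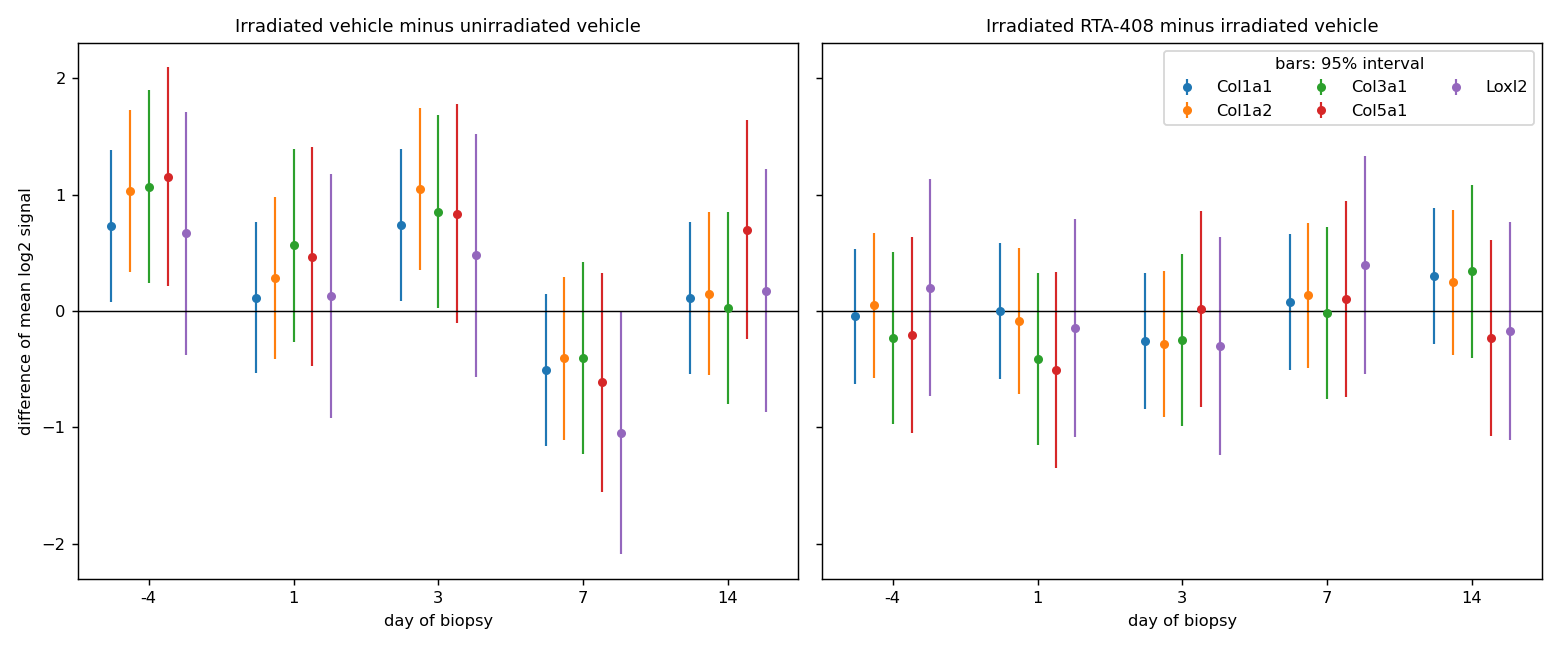
Differences of mean log2 signal (vertical axis) by day of biopsy (horizontal axis) for the 5 members, with 95% intervals, for irradiated vehicle minus unirradiated vehicle skin (left) and irradiated RTA-408 minus irradiated vehicle skin (right). The left panel runs from -1.05 to 1.16 and the right from -0.51 to 0.40, and every interval in the right panel includes 0.

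The drug comparison set irradiated RTA-408 skin against irradiated vehicle skin, 3 rats against 3 on each day. No member passed on day -4 (0 of 5, 0.0474% of all features), day 1 (0 of 5, 0.0733%), day 3 (0 of 5, 0.00431%), day 7 (0 of 5, 0%) or day 14 (0 of 5, 0%), and none had an unadjusted p under 0.05. The 25 differences ranged from -0.51 to 0.40, with 10 above 0, and arrays of the arms overlapped in all 25. The smallest limma adjusted p was 0.706.

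The largest drug differences were these. Col5a1 on day 1 read 10.72, 10.81 and 11.63 with RTA-408 and 11.10, 11.60 and 11.99 with vehicle, a difference of -0.51 ± 0.41 (SE; 95% interval -1.35 to 0.33). Loxl2 on day 7 read 11.11, 11.27 and 11.31 with RTA-408 and 10.23, 11.10 and 11.17 with vehicle, a difference of 0.40 ± 0.46 (SE; 95% interval -0.54 to 1.33). In the latter the vehicle group held 1 low array, that of rat 320. On day 14 the collagen I chains differed by 0.30 ± 0.29 (Col1a1) and 0.25 ± 0.31 (Col1a2), with 95% intervals from -0.28 to 0.88 and from -0.38 to 0.87. Over all days and members the 95% intervals lay between -1.35 and 1.33, so differences of this size in either direction are not excluded for the least precise genes. The drug difference did not pass for a change over the days for any member (moderated F-test, 0 of 5, 0.0129% of all features; limma adjusted p = 1.00 each).

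Irradiated RTA-408 skin was also set against unirradiated skin. No member passed on day -4 (0 of 5, 4.61% of all features), day 1 (0 of 5, 1.5%), day 3 (0 of 5, 2.29%), day 7 (0 of 5, 5.13%) or day 14 (0 of 5, 2.8%). On day -4 Col1a2 differed by 1.08 ± 0.34 (SE; limma adjusted p = 0.0614), beside the 1.03 of the vehicle arm. That day's unirradiated arrays are the same in both comparisons. Col1a2 passed on day -4 with array weights (limma adjusted p = 0.0195), without the dimmest features (0.0499) and without the RTA-408 array of rat 323 (0.0447). On day 3 it passed without the unirradiated array of rat 319 (0.0203).

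The labels name the day -10 biopsies as the pretreatment reference. Against baseline, no member passed in irradiated RTA-408 skin on day -4 (0 of 5, 5.79% of all features), day 1 (0 of 5, 11%), day 3 (0 of 5, 9.69%), day 7 (0 of 5, 15.8%) or day 14 (0 of 5, 10.2%). In irradiated vehicle skin the counts were 0 of 5 on day -4 (10.7%), day 1 (9.72%), day 3 (8.54%), day 7 (14%) and day 14 (15.4%). In unirradiated skin they were 0 of 5 on day -4 (0.0173%), day 1 (0.315%), day 3 (0%), day 7 (2.71%) and day 14 (0%). The differences ran from -0.50 to 0.54 with RTA-408, from -0.65 to 0.61 with vehicle and from -0.75 to 0.57 in unirradiated skin.

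For Col1a1 the differences from baseline ran from -0.05 to 0.34 with RTA-408, from -0.13 to 0.38 with vehicle and from -0.53 to 0.38 in unirradiated skin. Its 6 baseline arrays ran from 18.69 through a median of 18.79 to 19.40, with a mean of 18.89. On day 14 it read 18.87, 19.41 and 19.43 with RTA-408, 18.71, 18.95 and 19.14 with vehicle, and 18.57 and 19.08 without radiation. Each of these groups overlapped the baseline range. Differences from baseline were as wide in unirradiated skin as in irradiated skin. Its Col1a2 mean was 0.67 below baseline on day -4 and 0.71 below it on day 3, the only member differences from baseline at an unadjusted p under 0.05 (9.12% and 4.56% of all features), with limma adjusted p = 0.519 and 0.999. The day 3 difference was 0.02 above baseline without the array of rat 318.

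No member passed in any step from one biopsy day to the next within an arm. For the steps from day -4 to 1, 1 to 3, 3 to 7 and 7 to 14 the counts were 0 of 5 each in the RTA-408 arm (0.00863%, 0.0518%, 0.737% and 0.927% of all features), in the vehicle arm (0.755%, 0%, 3.25% and 0.211%) and in the unirradiated arm (0.0302%, 0%, 0.0733% and 0.203%). The widest step was from day 3 to day 7 in unirradiated skin. There the means of the 5 members differed by 0.92 to 1.17 without passing, with limma adjusted p between 0.199 and 0.452, and the arrays of the days did not overlap, as for 23.8% of all features in that direction. That step goes from rats 318 and 319 to rats 317 and 319. Without the unirradiated day 3 array of rat 319, Col1a1 and Col1a2 passed (limma adjusted p = 0.0273 and 0.0153), since the lone array left was the low one of rat 318. In rat 319 alone Col1a1 went from 19.02 to 19.26 and Col1a2 from 18.84 to 19.35.

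Biopsies of 1 rat are repeated measures, so the 5 days were also averaged per rat. The unirradiated arm then gives 2 units, of which one joins rats 318 and 317. Radiation differences of these means were 0.24 for Col1a1, 0.42 for Col1a2, 0.42 for Col3a1, 0.51 for Col5a1 and 0.08 for Loxl2. An exact two-sided permutation test over 3 and 2 units gave p = 0.3, 0.3, 0.3, 0.2 and 0.8, where the smallest it can give is 0.1. In the same gene order the drug differences were 0.014, 0.012, -0.115, -0.166 and -0.003, with exact two-sided permutation p = 0.8, 1, 0.6, 0.4 and 1 over 3 and 3 rats, where the smallest is again 0.1. In the limma fit of the same means 0 of 5 passed for radiation (13.7% of all features), with adjusted p from 0.153 to 0.892, and 0 of 5 for the drug (0.00863%), with adjusted p of 1.00.

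Rats differed from each other about as widely as the groups did. Rat 321, of the vehicle arm, had the highest mean of all 9 rats for each of the 5 members. Its 6 biopsies averaged 19.34 ± 0.24 (SD) for Col1a2 and 18.43 ± 0.40 (SD) for Col3a1. Rat 318, of the unirradiated arm, had the lowest mean for the 4 collagen chains, with 18.23 ± 0.64 (SD, 4 biopsies) for Col1a2 and 17.15 ± 0.46 (SD, 4 biopsies) for Col3a1. These rats were thus 1.11 apart for Col1a2 and 1.28 apart for Col3a1. For Loxl2 the lowest was rat 323, of the RTA-408 arm, 1.00 below rat 321. Rat 321 was already highest at baseline, with Col3a1 at 18.74 against 17.31 to 17.74 in the other 5 baseline arrays, before any treatment. Rat 318 was not the lowest there, with Col1a2 at 18.94 (baseline median 18.63) and Col3a1 at 17.67 (baseline median 17.64). Its other biopsies were unirradiated ones of days -4, 1 and 3.

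**Figure D3:**
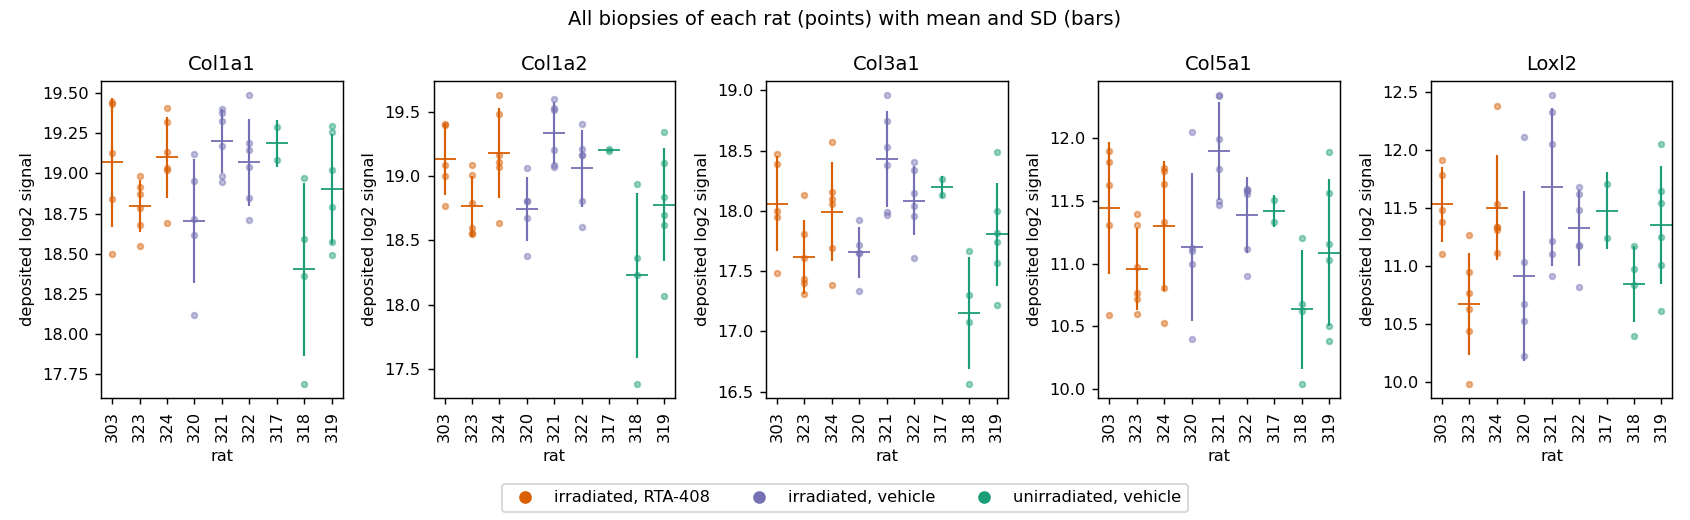
Deposited log2 signal (vertical axis) of each member in all biopsies of each rat (horizontal axis, coloured by arm, baseline biopsies included), with points for biopsies and bars for the rat's mean and SD. Rat 321 has the highest mean in every panel, and rat 318 the lowest for Col1a1, Col1a2, Col3a1 and Col5a1.

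The collagen chains moved together from biopsy to biopsy. After subtraction of group means, Col1a1 and Col1a2 correlated across the 46 arrays with r = 0.94, Col1a2 and Col3a1 with r = 0.93 and Col3a1 and Col5a1 with r = 0.89. The lowest r among the chains was 0.78, between Col1a1 and Col5a1. Loxl2 followed less closely, with r from 0.56 (Col1a1) to 0.74 (Col3a1). All 5 members lay above their group mean on 16 arrays and all 5 below it on 12, with mixed signs on 18. These points share array, rat and normalization, so the values describe the arrays and carry no test.

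The mean of the members also followed markers of other dermal cells across arrays, after subtraction of group means. It correlated with the mean of fibroblast markers at r = 0.63, of endothelium and pericyte markers at 0.61, of red blood cell markers at 0.56, of mast cell markers at 0.52 and of adipocyte markers at 0.51. With myofibroblast markers r was 0.32, with keratinocyte markers 0.27 and with macrophage markers 0.22. With neutrophil markers it was -0.0016, with skeletal muscle -0.07, with hair shaft -0.11 and with T cell markers -0.17. Of the 4 mast cell markers, Mcpt1 was at or below the negative control median on all 46 arrays, Tpsb2 on 20 and Cma1 on 15. Of the 4 red blood cell markers, Slc4a1 was there on 12 and Alas2 on 4. Of the 4 T cell markers, Cd3e, Cd3d and Cd3g were there on all 46 and Cd8a on 39. Of the 6 neutrophil markers, Retnlg, Mmp8, Csf3r and Cxcr2 were there on 46, 45, 39 and 34. Dcn and other genes of the fibroblast list are matrix genes themselves. The part of tissue composition in the spread of the members was not tested.

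Genes whose pattern over the 16 group means was most like that of the members were named from 15032 genes by Pearson r with the mean of the centred members. The highest was Sparc, a collagen-binding matricellular protein, at r = 0.96 over group means and 0.94 over the 46 arrays. Col6a2, a chain of collagen VI, followed at 0.91 and 0.92. Fkbp7, a prolyl isomerase of the endoplasmic reticulum, was at 0.89 and 0.83, and Kdelr3, a receptor that returns proteins to the endoplasmic reticulum, at 0.86 and 0.84. Sec22b, a vesicle fusion protein of the early secretory pathway, was at 0.85 and 0.72. Or1ad5, an olfactory receptor gene, was at 0.87 over group means but at 0.21 over arrays. For Loxl2 alone, Rnf144a (0.93 and 0.67), Nlgn3 (0.87 and 0.55), C1qtnf6 (0.84 and 0.81) and Pnck (0.83 and 0.42) were the nearest of the same 15032 genes. For Col1a1 alone, Sparc (0.93 and 0.86), Col6a2 (0.85 and 0.80), Fkbp9 (0.84 and 0.76) and Sema3b (0.83 and 0.73) were the nearest.

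Sparc and Col6a2 had no call in the radiation or drug comparisons. Both were picked for likeness to the members over the same group means, so a likeness in these differences is no separate evidence. On day -4 Sparc differed by 0.97 between irradiated vehicle and unirradiated skin (limma adjusted p = 0.0780) and Col6a2 by 1.31 (limma adjusted p = 0.126). On day 7 Sparc differed by -0.67 (limma adjusted p = 0.306), and Col6a2 by -0.08 (limma adjusted p = 0.965).

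The remaining lysyl oxidases were higher than at baseline in both irradiated arms, each on at least 1 day. Loxl1 is best known for cross-linking elastin, and Loxl3 and Loxl4 belong with Loxl2 to the subfamily with scavenger receptor domains. All 3 were measured. Against unirradiated vehicle skin, irradiated vehicle skin gave 0 of 3 calls on every day, with differences of 0.53 to 1.52 for Loxl1 and 1.04 to 2.08 for Loxl4. Loxl3 was at or below the negative control median in both unirradiated arrays of every day, so its differences there have no size. The drug comparison also gave 0 of 3 on every day. Irradiated RTA-408 skin was above unirradiated skin for Loxl1 on days -4 and 3, by 1.68 and 1.83 (limma adjusted p = 0.0352 and 0.0307), and for Loxl3 on day 7, by at least 0.94 (limma adjusted p = 0.0234). These calls were lost under 12 and 10 of 23 alternatives for Loxl1 on days -4 and 3 and under 11 of 23 for Loxl3, among them the omission of 4, 2 and 4 of the 5 arrays compared, 1 at a time. Against baseline, 0, 2, 1, 3 and 2 of the 3 passed as higher in irradiated vehicle skin on days -4, 1, 3, 7 and 14, and 1, 2, 3, 3 and 0 in irradiated RTA-408 skin. Of all features, 8.54% to 15.4% passed with vehicle and 5.79% to 15.8% with RTA-408, in either direction. In unirradiated skin 0 of 3 passed on each day. The calls in irradiated skin differed in how they held. Loxl4 with vehicle on day 14 was lost under 15 of 25 alternatives, Loxl1 with RTA-408 on day 3 under 12 of 25 and Loxl4 with vehicle on day 1 under 8 of 26, while Loxl1 with vehicle on day 1 was lost under 1 of 26 and Loxl3 with RTA-408 on day 7 under 0 of 25. Of 109 calls against baseline among these 3 and the other named genes, 61 were lost with the spike-in set as a block.

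Loxl4 had the widest of these differences. Its 6 baseline arrays ran from 7.24 to 9.18. On day 7 it read 10.19, 10.84 and 12.78 in irradiated vehicle skin, 10.14, 11.26 and 11.59 in irradiated RTA-408 skin, and 9.48 and 9.86 in unirradiated skin. All 8 arrays of that day were above every baseline array. The differences from baseline were 2.98 ± 0.49 with vehicle (SE; limma adjusted p = 4.27e-05), 2.70 ± 0.49 with RTA-408 (SE; limma adjusted p = 0.000127) and 1.38 ± 0.56 without radiation (SE; limma adjusted p = 0.190). With the spike-in set as a block the adjusted p of Loxl4 was 0.0737 with vehicle and 0.110 with RTA-408.

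Loxl1 read 9.43 to 11.01 at baseline. On day 7 it read 11.08, 11.33 and 11.89 with vehicle and 11.40, 11.42 and 11.83 with RTA-408, all above the baseline range. The differences were 1.36 ± 0.37 and 1.48 ± 0.37 (SE; limma adjusted p = 0.00945 and 0.00402). With the spike-in set as a block the adjusted p of Loxl1 was 0.389 with vehicle and 0.277 with RTA-408, and with the rat as a fixed term, which sets each rat against its own baseline where it has one, it was 0.236 with vehicle. Without the vehicle array of rat 320 it was 0.102.

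Loxl3 was at or below the negative control median on all 6 baseline arrays, so its rise is a lower bound. On day 7 it was higher by at least 0.53 with vehicle (measured difference 1.09, limma adjusted p = 0.00271) and by at least 0.94 with RTA-408 (measured difference 1.49, limma adjusted p = 6.2e-05). The vehicle value had an adjusted p of 0.0625 with the rat as a fixed term, 0.249 with the spike-in set as a block and 0.0628 without the array of rat 320, while the RTA-408 value passed under each of its 25 alternatives. For Loxl2 the same day 7 differences were -0.65 ± 0.40 with vehicle and -0.25 ± 0.40 with RTA-408 (SE; limma adjusted p = 0.334 and 0.761). No test was made between Loxl2 and its relatives.

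**Figure D4:**
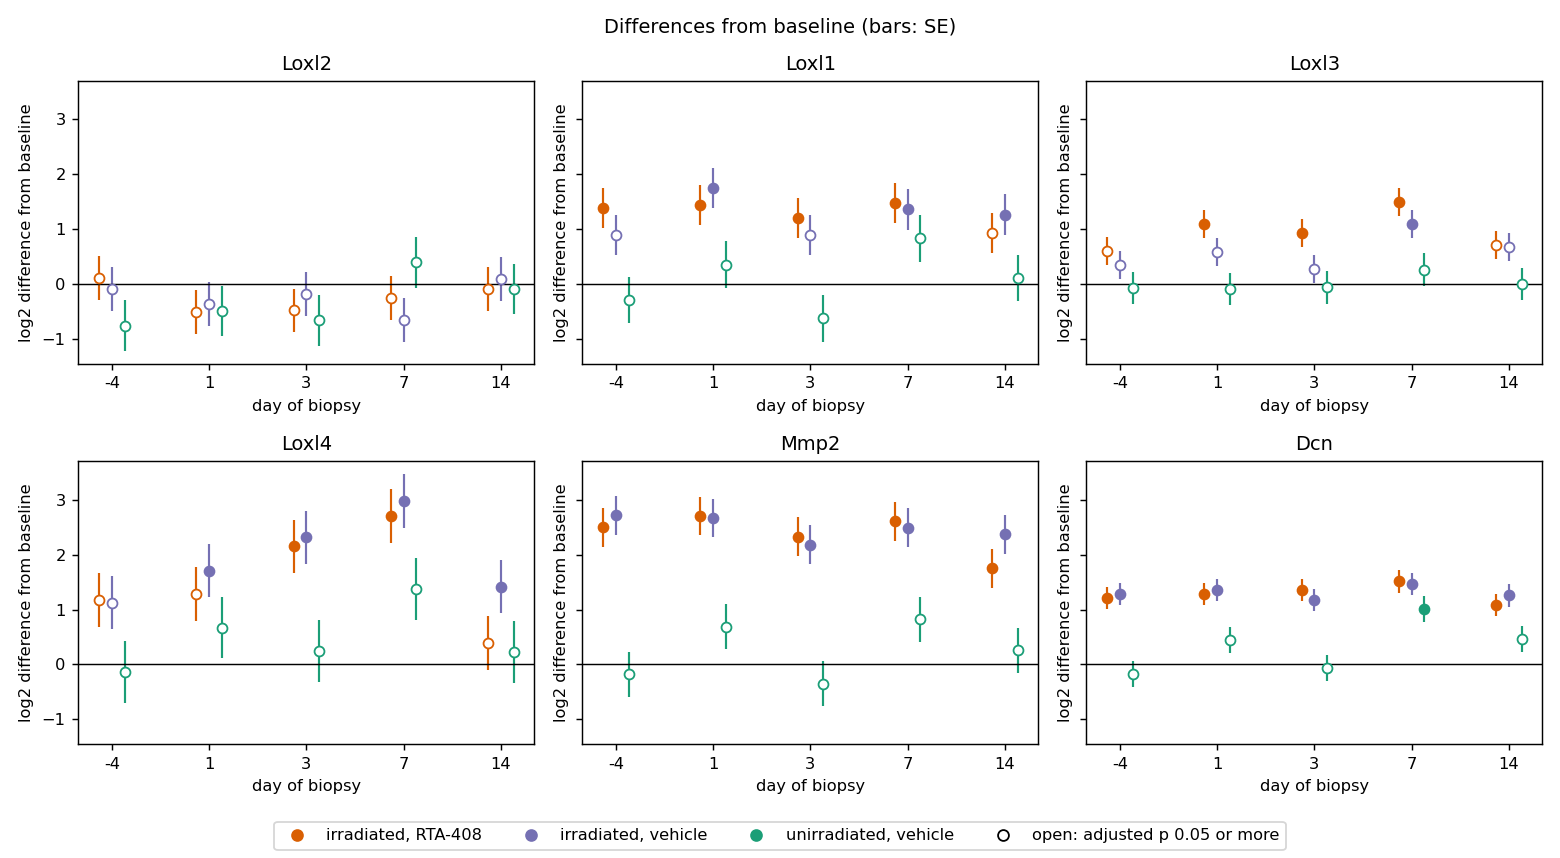
Difference from baseline in mean log2 signal (vertical axis, bars for SE) by day of biopsy (horizontal axis) for Loxl2, its relatives Loxl1, Loxl3 and Loxl4, and the matrix genes Mmp2 and Dcn in the 3 arms, with filled points for an adjusted p under 0.05. Loxl2 has open points only, Loxl4 reaches 2.98 on day 7 in irradiated vehicle skin, and Mmp2 and Dcn are filled on every day of both irradiated arms. Loxl3 is drawn as measured, although its baseline arrays were at the level of the negative controls.

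Other genes of the collagen pathway were followed from lists of 134 genes on synthesis, processing, degradation, receptors, fibril-binding proteins, elastic fibres, other collagens and TGF-beta signalling, of which 96 were measured. In the radiation comparison 11 passed as higher and 1 as lower on day -4 (12.5% of the 96, beside 7.42% of all features), 3 and 2 on day 1 (5.21% beside 2.1%), 3 and 0 on day 3 (3.12% beside 1.3%), 8 and 0 on day 7 (8.33% beside 4.02%), and 19 and 2 on day 14 (21.9% beside 6.96%). In the drug comparison 0 of 96 passed on each day. The radiation counts depended on single arrays. With any 1 array left out they were 2 to 8 on day -4, 0 to 4 on day 1, 0 to 10 on day 3, 1 to 5 on day 7 and 0 to 32 on day 14. The unirradiated array of rat 319 gave the lowest count on days -4, 1 and 14 when left out, with 2, 0 and 0, and the highest on day 3, with 10. The count was also 0 on day 1 without the vehicle array of rat 322, 0 on day 3 without the unirradiated array of rat 318, 1 on day 7 without the vehicle array of rat 320 or the unirradiated array of rat 317, and 1 on day 14 without the vehicle array of rat 320. They were 0 on all 5 days with the rat as a fixed term, a fit in which the arms are compared only through each rat's own biopsies of other days. Of the 33 radiation calls of the single genes described below, 3 were kept whichever single array was left out: Mmp2 and Dcn on day -4 and Tnc on day 7. On day 14 the drug count was 15 without the vehicle array of rat 322.

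Of the 9 matrix degradation genes 2, 1, 1, 3 and 4 passed as higher on days -4, 1, 3, 7 and 14, and 1 as lower on day 14. Of all features 7.42%, 2.1%, 1.3%, 4.02% and 6.96% passed on those days in either direction. Mmp2, a gelatinase that cleaves denatured collagen and basement membrane collagen, read 14.43 to 16.33 at baseline. On day -4 it read 17.45, 17.61 and 17.91 in irradiated vehicle skin against 14.61 and 14.91 in unirradiated skin, a difference of 2.90 ± 0.46 (SE; limma adjusted p = 0.000254). It also passed on days 1, 3, 7 and 14, with differences of 1.98, 2.53, 1.66 and 2.11 (limma adjusted p = 0.0174, 0.00244, 0.0321 and 0.00437). These 4 calls were lost on omission of 4, 1, 4 and 2 of the 5 arrays compared, 1 at a time. Against baseline Mmp2 passed on all 5 days in both irradiated arms, with differences of 1.75 to 2.72, and in unirradiated skin on none, with differences of -0.35 to 0.82. Of those baseline calls, the ones of day 3 in both arms and of day 14 with RTA-408 had adjusted p of 0.0582, 0.0912 and 0.200 with the spike-in set as a block (RTA-408 day 3, vehicle day 3 and RTA-408 day 14).

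The other calls of this list were in Timp2, Timp1, Mmp9, Mmp13 and Timp3. Timp2, an inhibitor of metalloproteinases that also takes part in activating Mmp2, was higher on day -4 by 1.40 (limma adjusted p = 0.0295), a call that was lost whichever 1 of the 5 arrays was left out. Timp1, another inhibitor, was higher by 3.74 on day 7 and 3.96 on day 14 in irradiated vehicle skin than in unirradiated skin (limma adjusted p = 0.0168 and 0.00793). Mmp9, a gelatinase found in neutrophil granules, was higher by at least 2.70 on day 7 and at least 2.81 on day 14 (limma adjusted p = 0.0339 and 0.0126), since 1 and 2 of the unirradiated arrays of those days were at or below the negative control median. Timp3, the matrix-bound inhibitor, was lower on day 14, with a difference of -2.23 (limma adjusted p = 0.00386). Mmp13, a collagenase, was higher on day 14 by at least 2.47, since it was at or below the negative control median in both unirradiated arrays and in 1 of the 3 irradiated ones (limma adjusted p = 0.00423). Without the vehicle array of rat 320, which was the highest of its group on day 14 for Timp1 and Mmp9, the measured day 14 differences became 2.18 for Timp1, 2.40 for Mmp9 and 2.96 for Mmp13 (limma adjusted p = 0.109, 0.158 and 0.0634). On day 7, 3 of 8 macrophage and 2 of 6 neutrophil markers passed as higher, beside 4.02% of all features in either direction. The macrophage mean signal was 11.98 over the irradiated vehicle and 9.48 over the unirradiated arrays, and the neutrophil one 8.91 and 6.07. Of the neutrophil markers, Retnlg, Mmp8, Csf3r and Cxcr2 were at or below the negative control median on 46, 45, 39 and 34 of all 46 arrays. On day 14, 8 of 8 macrophage markers passed as higher, beside 6.96% of all features in either direction. Their mean signals were 11.10 to 15.81 in irradiated vehicle arrays and 8.73 to 9.77 in unirradiated arrays. The highest of these was the array of rat 320, and the part of macrophages and neutrophils in these genes was not tested.

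Genes that act on the collagen chains inside the cell gave most of their calls on day 14. P3h2, a prolyl 3-hydroxylase, was higher in irradiated vehicle than in unirradiated skin by 1.93 on day -4, 1.54 on day 7 and 1.58 on day 14 (limma adjusted p = 0.00600, 0.0329 and 0.0193). Its day 7 call was lost whichever 1 of the 5 arrays compared was left out. Of the 17 measured synthesis and secretion genes 1, 0, 0, 1 and 4 passed as higher on days -4, 1, 3, 7 and 14, with 0 lower. The 4 stand beside 6.96% of all features called in either direction on day 14. They were P3h2, P4hb (protein disulfide isomerase, the beta subunit of prolyl 4-hydroxylase, 1.00), P4ha1 (its catalytic alpha subunit, 1.17) and Plod1 (a lysyl hydroxylase, 1.35), with limma adjusted p of 0.0173 for P4hb, 0.0256 for P4ha1 and 0.0360 for Plod1. Bmp1, the procollagen C-proteinase, was higher by 1.64 on day 14 (limma adjusted p = 0.0191). The day 14 calls of P3h2 and P4hb were lost on omission of 3 of the 5 arrays compared, 1 at a time. Those of P4ha1, Plod1 and Bmp1 were lost on omission of 2. With the compared groups alone, and with the rat as a fixed term, each of these day 14 calls was lost.

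Calls also came from proteins that bind collagen fibrils. Dcn, a small proteoglycan that coats collagen fibrils, was higher in irradiated vehicle than in unirradiated skin on day -4 by 1.45 and on day 3 by 1.25 (limma adjusted p = 0.00139 and 0.00883). Lum, a related proteoglycan, was higher by 2.36 on day 7 and 3.14 on day 14 (limma adjusted p = 0.0446 and 0.00504). The day 7 call of Lum was lost whichever 1 of the 5 arrays compared was left out. Tnc, a matrix glycoprotein of wounds, was higher by 5.31 on day 7 and 2.79 on day 14 (limma adjusted p = 0.000572 and 0.0416). On day 14 Tnc read 10.92, 12.72 and 16.42 in irradiated vehicle skin, and without the highest of these, the array of rat 320, its difference was 1.26 (limma adjusted p = 0.482). Of the 14 measured fibril-binding genes 3, 0, 1, 2 and 2 passed as higher on days -4, 1, 3, 7 and 14, and 0 as lower. The shares of all features on those days were 7.42%, 2.1%, 1.3%, 4.02% and 6.96% in either direction.

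Among other collagens the radiation calls were few. Col14a1, a fibril-associated collagen, was higher on day -4 by 1.52 and on day 1 by 2.19 (limma adjusted p = 0.0465 and 0.0132), and Col18a1, of basement membranes, on day 14 by 0.98 (limma adjusted p = 0.0236). In the same order, these calls were lost on omission of 4, 2 and 3 of the 5 arrays compared, 1 at a time. The 4 other fibrillar collagens measured gave 0 calls on every day. Efemp1, an elastic fibre-associated fibulin, was higher on days -4, 3 and 14 by 2.03, 2.16 and 1.69 (limma adjusted p = 0.00557, 0.00719 and 0.0165), and Tgfb1, the cytokine that drives collagen synthesis in wounds, on days 7 and 14 by 1.76 and 2.19 (limma adjusted p = 0.0352 and 0.00571). Without the vehicle array of rat 320 the day 14 difference of Tgfb1 was 1.36 (limma adjusted p = 0.0925). The day 7 call of Tgfb1 was lost whichever 1 of the 5 arrays compared was left out. On days 7 and 14 Col1a1 differed by -0.51 and 0.11 and Col3a1 by -0.40 and 0.03. The difference between these genes and the collagens was not tested.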

How the data were processed

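The material was RNA of skin biopsies, on 46 Clariom S arrays with 1 colour each. The authors' deposited table holds log2 signals per probe set. Its background correction, summarization and normalization are not given in the sources used here, and the values were used as deposited. Control features were left out (1646), and 23188 features were tested. In all, 15049 carry 1 gene symbol in the platform annotation, and of several features of a symbol the one with the highest mean was used.

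A mean per group (16 groups) was fitted over all arrays with limma 3.58.1 (lmFit, eBayes) in R 4.3.3, with 30 residual degrees of freedom. Benjamini-Hochberg adjustment ran over all features in each comparison, and an adjusted p under 0.05 was called. The fit takes biopsies of 1 rat as independent. Replicates are separate rats, but rats recur across days and at baseline. Comparisons with baseline and between days therefore share rats in part, and the main fit does not use this pairing. Rats 303, 317 and 320 have no baseline array. Across arms replicate numbers join different rats. Tests were checked on simulated data in which all arrays were drawn independently, so the check does not cover repeated biopsies of a rat. Genes were named from the called ones of each list, comparison and day by size, at most 4. A difference from a group with arrays at or below their negative control median was given as a bound, marked as measured, or given no size. The members, lists and rules were chosen with earlier results of these data known.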

Additional observations from a re-analysis of the deposited data

Results flagged for a closer look

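The baseline biopsy of rat 321 stood apart. Of 28 gene profiles examined for a single extreme array among the 6 baseline arrays, 7 had one by Dixon's criterion at 95%, and in all 7 it was this array, as the highest. Chance flags about 1 in 20 such groups, and all profiles share the same 6 arrays. Col3a1 was at 18.74 (next highest 17.74), and Col5a1 at 12.34 (next highest 11.20). Among the genes that bind or cleave collagen, Mmp2 was at 16.33 (next highest 14.89), Dcn at 19.15 (next highest 18.20), Lum at 13.51 (next highest 11.63) and Sparc at 19.49 (next highest 18.81). Col6a2, a chain of collagen VI, was at 13.98 (next highest 12.60). Leaving this array out gave no call of a member in any comparison with baseline.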

How the results depend on the processing

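No member was called in the 42 comparisons, the tests of change over the days or the rat means, which make 46 counts. Of 1055 counts under an alternative, 12 held a call. Radiation on day -4 gave 3 members with array weights, 2 with the replicate block, 1 without the dimmest features and 0 to 1 without 1 array or rat, the 1 being without rat 320. Irradiated RTA-408 minus unirradiated skin on day -4 gave 1 with array weights, 1 without the dimmest features and 0 to 1 without 1 array or rat, and on day 3 0 to 1. Radiation on day 3 gave 0 to 2, and the unirradiated step from day 3 to 7 gave 0 to 2. Col1a2 in unirradiated skin on day 3 against baseline reversed from -0.71 to 0.02 without the array of rat 318 and to 0.046 without that rat, and ranged from -1.47 to 0.046 over such omissions. Signs of member differences changed in 16.2% of drug alternatives and in 4.7% of radiation ones.

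Counts of called pathway genes moved more. On day -4 radiation (12) gave 31 with array weights, 0 with the rat as a fixed term, 5 within spike-in set I and 2 to 13 without 1 array or rat. On day 1 (5) it gave 8 with array weights, 1 with the compared groups alone, 0 with the rat as a fixed term, 1 within set I and 0 to 6 without 1 array or rat. On day 3 (3) it gave 0 with the compared groups alone, 0 with the rat as a fixed term, 1 within set III and 0 to 10 without 1 array or rat. On day 7 (8) it gave 0 with the rat as a fixed term, 1 within set III and 1 to 6 without 1 array or rat. On day 14 (21) it gave 0 with the compared groups alone, 0 with the rat as a fixed term and 0 to 32 without 1 array or rat. The drug count of day 14 (0) was 0 to 15 without 1 array or rat. Fits of fewer arrays have fewer degrees of freedom by construction, and the cause of the other changes was not tested.

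Across arms the replicate numbers join different rats, with correlations of paired deviations between -0.38 and 0.25 in the radiation and drug comparisons. The replicate block gave 2 members in the radiation comparison of day -4, Col1a2 at 1.22 and Col5a1 at 1.44 (limma adjusted p = 0.0421 and 0.0281), and pathway counts of 1 on day 1, 0 on day 3 and 0 on day 14. It changed no other member count.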
